A study of Mus musculus with 9 samples.

Results

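The cathepsin genes Ctsg, Ctsk and Ctsl made up 3 of the 84 wound healing genes measured by PCR array in mouse colon. They were chosen by gene name, whatever their values, and all 3 matched the RefSeq gene table through the identifiers of the array layout. The layout gives Ctsl where the gene list in the methods has cathepsin V, and the layout was followed. RNA from the colon of 5 mice was pooled for each group, and each pool was run on 3 arrays, so that 9 arrays in all were compared. The mice were females of the strain labelled C57bl6J, 8 to 9 weeks old, taken after 7 days. Mice of the DSS+DPG group received 3% dextran sodium sulphate (DSS), a polymer that injures the colon epithelium and gives an acute colitis, together with 8 mg/kg/day of dipotassium glycyrrhizate (DPG), a salt of the liquorice compound glycyrrhizin, by oral gavage. DSS mice received 3% DSS alone, and untreated (UN) mice regular drinking water. A gavage of vehicle is not stated for the DSS and UN mice in the sources used here.

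Cathepsins K and L are cysteine proteases of the papain family that work mainly in the acid interior of lysosomes. Cathepsin K is best known for cleaving the triple helix of fibrillar collagen in bone resorbed by osteoclasts, and it is also made by activated fibroblasts and macrophages. Cathepsin L is a broadly expressed protease of lysosomal protein turnover, and macrophages can secrete it. Cathepsin G is not a relative of these enzymes but a serine protease that neutrophils store in their primary granules. Its mRNA is made mainly by the precursors of neutrophils in the bone marrow.

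Expression was read as the threshold cycle (Ct) of each well, in log2 steps, so that a Ct that is 1 cycle earlier stands for 2-fold more template. Delta Ct is the distance of a gene from the reference, the mean over the 5 housekeeping genes of its array (Actb, Gapdh, Gusb, Hsp90ab1 and B2m), and any well that gave none, or one later than 38, was entered as 38. All 9 arrays entered one limma fit, with p-values adjusted across the panel by Benjamini-Hochberg and differences called at an adjusted p under 0.05. The arrays of a group repeat 1 pool, so every p-value measures the technical spread of repeats and not the spread between mice. The housekeeping genes themselves differed between groups. Their mean Ct was 23.44 in DSS+DPG, 22.23 in DSS and 22.00 in UN, and in DSS+DPG all 5 lagged behind DSS, by 0.39 cycles (Hsp90ab1) to 1.71 cycles (B2m). Between DSS and UN they moved apart, from B2m, 1.10 cycles earlier in DSS, to Hsp90ab1, 1.08 cycles later. The median Ct of the panel was 29.60 to 29.69 in the DSS+DPG arrays, 26.57 to 26.77 in the DSS arrays and 27.84 to 27.89 in the UN arrays. The genes that mark epithelium and smooth muscle on the panel had a Ct to 38 in all 9 arrays, and 80 of the 84 panel genes did.

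Ctsk was highest in mice with DSS colitis and lowest in mice that also received DPG. Its raw Ct was 30.34, 30.41 and 30.38 in the DSS+DPG arrays, 27.87, 27.71 and 27.78 in the DSS arrays, and 28.47, 28.27 and 28.37 in the UN arrays. The 3 groups did not overlap, and before any reference was applied Ctsk already came latest in DSS+DPG and earliest in DSS. A late raw Ct in DSS+DPG was common to the panel. By raw Ct 92.9% of panel genes were called lower there than in DSS, and 81.7% of those tested lower than in UN. In DSS 57.1% were called higher than in UN. As delta Ct, Ctsk had 6.94 ± 0.045 (SD, n = 3 arrays) in DSS+DPG, 5.56 ± 0.0081 in DSS and 6.37 ± 0.10 in UN. A lower delta Ct means more mRNA, so the order of the groups stayed DSS, UN and DSS+DPG from the highest expression to the lowest.

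**Figure D1:**
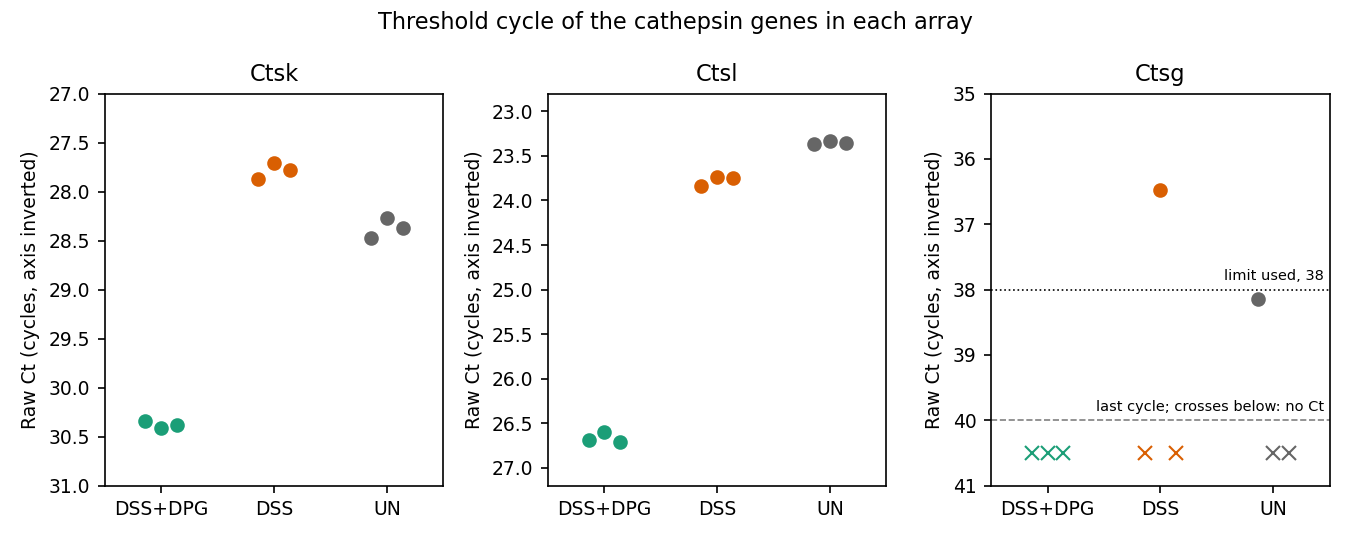
Raw Ct (cycles, axis inverted so that more template is higher) of Ctsk, Ctsl and Ctsg in the 3 arrays of DSS+DPG, DSS and UN. Each point is an array, and crosses below the line at the last cycle are wells with no Ct. Ctsk and Ctsl separate all 3 groups, with DSS+DPG at 30.34 to 30.41 for Ctsk and 26.60 to 26.71 for Ctsl, and Ctsg has a Ct in 1 DSS and 1 UN array.

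With DPG, Ctsk was 2.60-fold lower than in DSS alone (log2 fold change -1.38, standard error 0.053, adjusted p = 4.54e-08 from limma). Falls were common in that comparison, since 76.2% of the 84 panel genes were called lower and 90.5% had no overlap between the arrays of both groups. Ctsk ranked 45 of 84 from the highest log2 fold change, between Egfr (-1.32), the receptor of epidermal growth factor, and the integrin Itga5 (-1.43), and its fall was within 0.080 of the panel median of -1.30. It was thus a fall of about the middle size on this panel. It lay under the 3.5-fold threshold of the study's methods, which 34.5% of panel genes passed downward, but this depended on the reference. Under 3 of 14 other references the fall of Ctsk was at least 3.5-fold, namely the geometric mean Ct of Hsp90ab1, Itga3 and Mif (-2.21), Hsp90ab1 alone (-2.20) and raw Ct with no reference (-2.59). The whole panel moved with these references, its median being -2.13 with Hsp90ab1, Itga3 and Mif and -2.51 with raw Ct. Since a reference moves all genes of an array alike, the place of Ctsk near the middle of the panel could not change with it.

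In DSS against UN, Ctsk was 1.76-fold higher (log2 fold change 0.81, standard error 0.053, adjusted p = 1.6e-06 from limma), where 61.9% of panel genes were called higher and 95.2% had no overlap. The panel median was 0.71 here, which is 0.11 below Ctsk. In DSS+DPG, Ctsk was also lower than in UN, by 1.48-fold (log2 fold change -0.57, standard error 0.053, adjusted p = 1.57e-05 from limma), and 69.5% of the 82 genes tested were called lower in that comparison and 93.9% had no overlap. The same DSS arrays enter both comparisons with DSS, and the comparison of DSS+DPG with UN does not use them.

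Ctsl, in contrast, was close in DSS and UN mice and much lower with DPG, by raw Ct and by delta Ct. Its raw Ct was 26.69, 26.60 and 26.71 in the DSS+DPG arrays, 23.84, 23.74 and 23.75 in the DSS arrays, and 23.37, 23.33 and 23.35 in the UN arrays. The groups did not overlap, which was common on the panel. By delta Ct, 95.2% of panel genes had no overlap between DSS and UN and 90.5% none between DSS+DPG and DSS. Between DSS+DPG and UN, 93.9% of the genes tested had none. For Ctsl, DSS and UN lay less than a cycle apart while DSS+DPG came more than 2 cycles after either. The panel shared this lag, since its median log2 fold change by raw Ct was -2.51 against DSS and -2.13 against UN. Its delta Ct was 3.23 ± 0.050 (SD, n = 3 arrays) in DSS+DPG, 1.55 ± 0.027 in DSS and 1.35 ± 0.027 in UN. By delta Ct the highest Ctsl was thus found in UN, then DSS, and the lowest in DSS+DPG.

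With DPG, Ctsl was 3.21-fold below its level in DSS (log2 fold change -1.68, standard error 0.035, adjusted p = 1.6e-09 from limma). This also lay under the threshold of 3.5-fold, which it passed under 4 of the 14 other references, those named for Ctsk (-2.51 with Hsp90ab1, Itga3 and Mif, -2.50 with Hsp90ab1, -2.89 with raw Ct) and Gapdh alone (-1.83). The panel median moved too, to -2.13 with Hsp90ab1, Itga3 and Mif and to -2.51 with raw Ct. Ctsl ranked 51 of 84 from the highest, between the gelatinase Mmp2 (-1.64) and the collagen gene Col5a1 (-1.71). Against UN, Ctsl in DSS+DPG was 3.67-fold lower (log2 fold change -1.88, standard error 0.035, adjusted p = 1.39e-09 from limma), which passed the threshold of 3.5-fold together with 17.1% of the genes tested. That pass held under 9 of the 14 other references and was lost with Gapdh (-1.55), Actb (-1.62) or Gusb (-1.67) alone, without B2m (-1.67) and with the median Ct over all panel genes (-1.55). The panel median for this comparison ran from -2.13 with raw Ct to -0.36 with the median Ct over all panel genes as reference. Ctsl ranked 71 of 82 there, between Vtn (-1.84), the adhesive protein vitronectin, and Acta2 (-1.90), the actin of smooth muscle, and lay 1.19 below the panel median of -0.69 on the log2 scale.

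In DSS against UN, Ctsl was 1.15-fold lower (log2 fold change -0.20, standard error 0.035, adjusted p = 0.00088 from limma). Only 29.8% of panel genes were called lower with DSS, and Ctsl lay 0.90 below the panel median. It ranked 59 of 84, between the integrin Itga2 (-0.18) and F3 (-0.22), the tissue factor that starts blood clotting. The direction and size of this difference depended on the reference. With the median Ct over all panel genes as reference it was -1.64, and DSS+DPG against DSS then had 0.092. Over the 14 other references, Ctsl was called lower in DSS under 9, higher under 3 and passed in neither direction under 2, and with each housekeeping gene taken alone its log2 fold change ran from -1.53 (B2m) to 0.66 (Hsp90ab1). The housekeeping genes taken alone, apart from Gapdh, were chosen as references after seeing the data.

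The calls on Ctsk held under more of these references. Its rise with DSS was called under 12 of the 14 and turned to a fall under the other 2, which were B2m alone (-0.52) and the median of all panel Ct in the array, called the panel-median reference here (-0.63). For DSS+DPG against DSS, Ctsk and Ctsl were each called lower under 13 of the 14, and with the 5 housekeeping genes one at a time Ctsk ran from -2.20 to -0.88 and Ctsl from -2.50 to -1.18. The exception was the panel-median reference, under which Ctsk was higher with DPG (0.39) and Ctsl had 0.092 (adjusted p = 0.0759 from limma). Under that reference the panel's own median log2 fold change was 0.47 with DPG and -0.74 with DSS. The panel-median reference thus took away more than the shift of the middle panel gene. With DPG, Ctsk and Ctsl both lay below that 0.47. The panel went from 11 genes higher and 64 lower to 48 higher and 25 lower with DPG. With DSS it went from 52 higher and 25 lower to 21 higher and 51 lower. In DSS+DPG against UN both genes were lower under all 14 references, Ctsk by a log2 fold change of -0.24 to -1.40 and Ctsl by -1.55 to -2.71 over the single housekeeping genes.

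**Figure D2:**
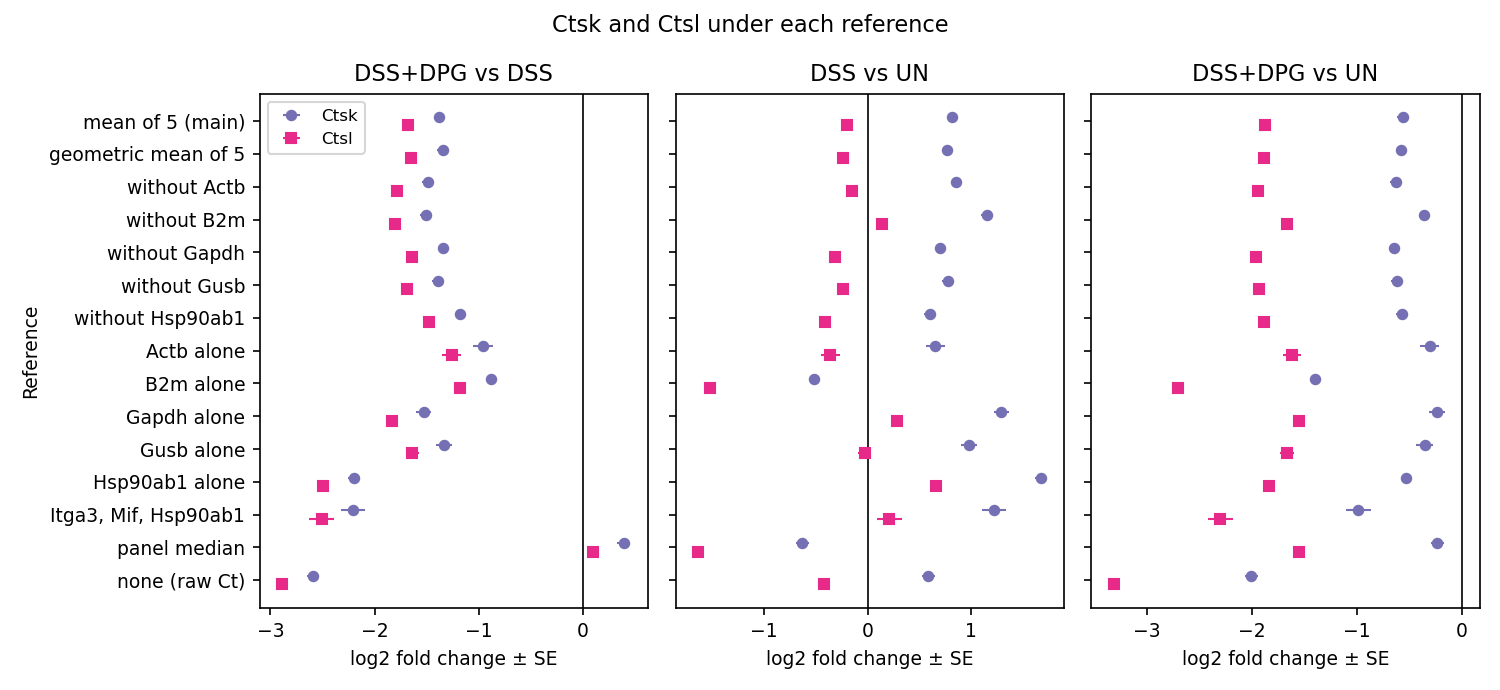
Log2 fold change with its standard error (horizontal axis) of Ctsk (circles) and Ctsl (squares) under each of 15 references (vertical axis), for DSS+DPG against DSS, DSS against UN and DSS+DPG against UN. In the panel for DSS+DPG against UN every point lies below 0, in DSS against UN Ctsl crosses 0, and Ctsl lies below Ctsk by the same distance under every reference, since a reference moves both genes alike.

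The gap between the Ct of Ctsk and that of Ctsl in the same array needs no reference, so it compares the changes of the 2 genes directly. It is no ratio of their amounts, since the assays of different genes need not amplify alike. The gap was 3.65, 3.81 and 3.67 cycles in the DSS+DPG arrays, 4.03, 3.97 and 4.03 cycles in the DSS arrays, and 5.10, 4.94 and 5.02 cycles in the UN arrays. It was widest in UN, about a cycle narrower in DSS and narrowest in DSS+DPG, with no overlap between groups. The arrays of a group repeat 1 pool, and at least 90.5% of single panel genes separated between groups by delta Ct. How many other pairs of genes have a gap without overlap was not counted. With DSS the gap narrowed by 1.01 cycles against UN, that is, Ctsk was 2.01-fold higher relative to Ctsl. In DSS+DPG the gap was 1.31 cycles narrower than in UN, 2.48-fold in the ratio of Ctsk to Ctsl. DSS+DPG and DSS differed by a further -0.30 cycles, or 1.23-fold. Each of the 3 differences reached two-sided p = 0.1 in an exact permutation test, the smallest that 3 arrays against 3 allow. Leaving out any array kept the sign of all 3.

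**Figure D3:**
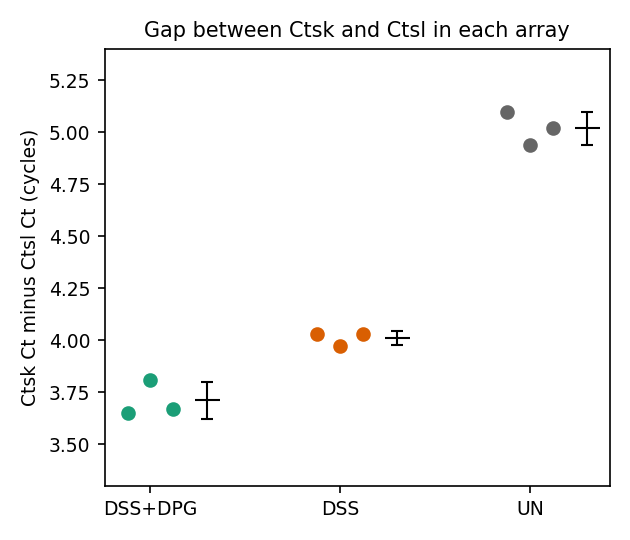
Ct of Ctsk minus Ct of Ctsl in each array (cycles, vertical axis, not from 0) for DSS+DPG, DSS and UN. Points are arrays and the bars beside them the mean ± SD of 3 arrays, 3.71 ± 0.087, 4.01 ± 0.035 and 5.02 ± 0.080 cycles from left to right, with no overlap between groups.

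Ctsg was at or beyond the limit of detection in the colon of all 3 groups. No DSS+DPG array gave a Ct for it, 1 of 3 DSS arrays gave a Ct, 36.48, and 1 of 3 UN arrays gave a Ct, 38.15, which is past the limit used. A Ct to 38 was thus seen in 1 of 9 wells, and the other DSS arrays, of the same pooled RNA, had none. Only 4 panel genes lacked a Ct to 38 in some array, and Ctsg had the fewest such wells of them. The others were Plg (plasminogen, 2 of 9 wells), Fga (a fibrinogen chain, 3 of 9) and Il2 (the T cell growth factor interleukin 2, 7 of 9).

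No fold change is given for Ctsg. Its fitted values did not pass in DSS+DPG against DSS (adjusted p = 0.0908 from limma) or in DSS against UN (adjusted p = 0.0763 from limma), and it was not tested in DSS+DPG against UN, where both groups lay at 38. At the limit the delta Ct of Ctsg only follows the housekeeping genes. It was 14.55 to 14.57 in the DSS+DPG arrays and 15.98 to 16.01 in the UN arrays although all 6 wells had been set to the same Ct, so neither sign nor size can be read from it. A difference in Ctsg between groups was not detectable with these assays.

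The panel genes that bear on neutrophils moved widely between groups, and Ctsg was at or near the limit in all of them. All 4 genes of the list of neutrophil attractants and the granulocyte growth factor Csf3 were called lower with DPG than without it in DSS mice, where 76.2% of the panel was, their median log2 fold change being -4.69 against -1.30 for the panel, the deepest being Cxcl3 (-6.55). All 4 were called higher in DSS than in UN, where 61.9% of the panel was, with a median of 6.53 against 0.71, from Cxcl1 (4.44) to Cxcl3 (9.68). In DSS+DPG 3 of the 4 were still called higher than in UN, against 22% of the genes tested, and the other, Cxcl1, had 0.03. The study selected all 4 on these arrays for a rise with DSS and a fall with DPG, so these counts are not independent evidence of their direction. Their summed level, as 2 to the power of minus delta Ct, was 0.0413 to 0.0448 in DSS+DPG, 0.628 to 0.691 in DSS and 0.0144 to 0.0171 in UN.

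Ctsk and Ctsl can come from several cell types, and in RNA of whole colon fewer cells of a type and less RNA per cell cannot be told apart. The fibroblast list (7 genes, 5 of them fibrillar collagens) had all 7 called lower with DPG in DSS mice, where 76.2% of the panel was, and 6 higher and 1 lower (Col14a1, -0.87) in DSS than in UN, where 61.9% of the panel was higher. Its median log2 fold change was -1.71 with DPG and 0.49 with DSS. Its summed level was 1.03 to 1.07 in DSS+DPG, 8.71 to 9.33 in DSS and 3.65 to 3.71 in UN, the same order of groups as for Ctsk. Such a sum gives most weight to the genes with the earliest Ct. Col14a1, Mmp2 and the collagens had a Ct to 38 in every array. The sum over Plaur, Mmp9, Il1b and F13a1, which stand for neutrophils and macrophages, was 0.0563 to 0.0579 in DSS+DPG, 0.686 to 0.697 in DSS and 0.0383 to 0.0395 in UN, with all 4 called lower with DPG and all 4 higher with DSS. Their median was -2.70 with DPG and 2.97 with DSS. These 4 split in DSS+DPG against UN, with Il1b (2.87) and Plaur (1.16) called higher and F13a1 (-0.90) and Mmp9 (-0.61) called lower, and Il1b, Mmp9 and Plaur were among the genes the study selected on these arrays. The epithelial sum (Cdh1, Itga3, Itga6 and Itgb6) was 0.460 to 0.467 in DSS+DPG, 0.418 to 0.438 in DSS and 0.687 to 0.760 in UN. Its genes split in DSS against UN, with Cdh1 (-1.05) and Itga6 (-0.73) called lower and Itgb6 (0.45) higher, while Itga3 (0.01) did not pass. With DPG, Cdh1 (0.29) and Itga3 (0.26) were called higher than in DSS and Itgb6 (-0.94) lower, and Itga6 (0.09) did not pass. The smooth muscle sum (Acta2, Actc1 and Tagln) was 1.39 to 1.44 in DSS+DPG, 2.44 to 2.55 in DSS and 4.57 to 6.06 in UN. That is the order of groups of Ctsl by delta Ct, but the steps differed. In DSS against UN these 3 genes ran from -3.15 (Actc1) to -0.70 (Tagln), where Ctsl had -0.20. With DPG Acta2 (-0.40) and Tagln (-1.12) were called lower than in DSS and Actc1 higher (1.10), where Ctsl had -1.68. All 3 were called lower than UN both in DSS+DPG and in DSS. The part of these cells in the changes of Ctsk and Ctsl was not tested.

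The fibrillar collagens, whose proteins cathepsin K can cleave, shared the direction of Ctsk with DPG, as did 76.2% of the panel. All 6 fibrillar collagen genes of the panel were called lower in DSS+DPG mice than under DSS alone, with a median of -1.79, from Col1a1 (-0.39) to Col3a1 (-3.55, a gene the study selected on these arrays), where Ctsk had -1.38. In DSS against UN 5 of the 6 were called higher, where 61.9% of the panel was. Their median was 0.34, against 0.71 for the panel and 0.81 for Ctsk. The highest was Col3a1 (1.48), and Col5a3 (0.07) did not pass. In DSS+DPG against UN 5 were called lower, where 69.5% of the genes tested were, and Col1a1 (0.10) did not pass. Their median was -1.69 against -0.69 for the panel, with the lowest value in Col5a2 (-2.15). Under the panel-median reference 2 of the 6 were called lower with DPG (29.8% of the panel was) and 1 was higher (57.1% of the panel). With DSS 5 were lower under it, as was 60.7% of the panel.

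Within the array's class of 16 matrix remodeling genes, which holds proteases, their inhibitors and clotting factors, Ctsl stood at the low end in both comparisons with UN. In DSS against UN 11 of the 16 were called higher (68.8%, against 61.9% of the panel) and 3 lower (18.8%, against 29.8%), namely Mmp1a (-0.43), F3 (-0.22) and Ctsl. The class median was 1.15 against 0.71 for the panel, and its highest member was Timp1, an inhibitor of metalloproteinases, at 19.7-fold. Ctsk lay below that median. Under the reference of Hsp90ab1, Itga3 and Mif 12 were higher (75%, against 65.5% of the panel) and none lower (against 19.0% of the panel). Under the panel-median reference 5 were higher (31.25%, against 25%) and 7 lower (43.75%, against 60.7%).

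With DPG 12 of the 16 were called lower than in DSS, Ctsk and Ctsl among them, which at 75% is close to the 76.2% of the panel. A single member was called higher, where 13.1% of the panel was, namely the epithelial metalloproteinase Mmp7 (1.61-fold). The other 3 did not pass. The class median was -1.51, between Ctsk and Ctsl, and the deepest fall was that of Plat, the tissue plasminogen activator, at 13.6-fold. Under the panel-median reference 8 were called higher (50%, against 57.1% of the panel) and 6 lower (37.5%, against 29.8%). Of the 16, 14 could be tested in DSS+DPG against UN, 9 were called lower (64.3%, against 69.5% of the panel genes tested) and 4 higher (28.6%, against 22%). Ctsl had the lowest value of the class there (-1.88), while Mmp7 had the highest at 5.91-fold. A reference moves all genes of an array alike, so it changes the value of Ctsl but cannot change this place. The value was -2.30 with Hsp90ab1, Itga3 and Mif and -1.55 with the panel-median reference.

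**Figure D4:**
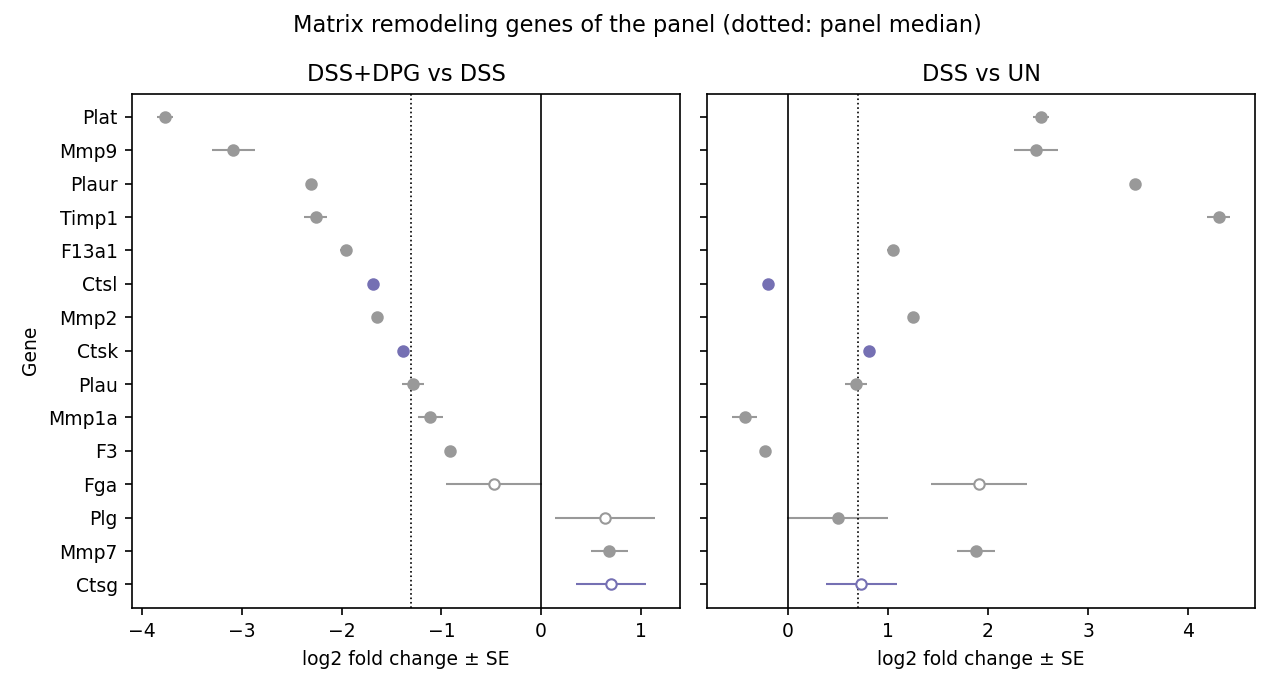
Log2 fold change with its standard error (horizontal axis) of genes of the matrix remodeling class (vertical axis) in DSS+DPG against DSS and in DSS against UN, each over 3 arrays per group. The 3 cathepsins are coloured, open symbols have a group wholly at the limit of 38 cycles and so give no size, 1 gene of the class is not shown, and the dotted line is the panel median (-1.30 and 0.71). Ctsk lies close to the median in both comparisons, and Ctsl lies below it, by more in DSS against UN.

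The panel genes whose course over the 9 arrays was most like that of each cathepsin were found from the root mean square difference between minus delta Ct values, each centred on the mean of the gene. For Ctsk these were Itgav, an integrin chain that binds vitronectin and fibronectin (0.079 cycles), Plau, the urokinase plasminogen activator (0.108 cycles), and Itga4, an integrin chain of leukocytes (0.115 cycles). Itgav had log2 fold changes of -1.52 in DSS+DPG against DSS and 0.87 in DSS against UN, which set beside -1.38 and 0.81 for Ctsk. For Ctsl they were Hbegf, an EGF-like growth factor that binds heparin (0.111 cycles), and the collagen genes Col1a2 (0.138 cycles) and Col5a3 (0.226 cycles). Hbegf had -1.85 in DSS+DPG against DSS and -0.24 in DSS against UN, where Ctsl had -1.68 and -0.20.

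Pearson's r over the 9 arrays was 0.995 for Ctsk with Itgav and 0.998 for Ctsl with Hbegf, as descriptions of 9 points that are repeats of 3 pools and share the same reference. When genes were ranked by r in place of the difference, 1 of the 3 genes remained for each, Itgav for Ctsk and Hbegf for Ctsl. Ctsk and Ctsl were not among each other's nearest genes. Their difference was 0.563 cycles (r = 0.747), which made Ctsl only the 31st nearest gene to Ctsk and Ctsk the 22nd nearest to Ctsl.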

How the data were processed

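Raw Ct values per well, on a log2 scale with no normalization, were deposited by the authors from RT2 Profiler PCR arrays of colon RNA (1 µg reverse transcribed, SYBR green, 40 cycles). They also deposited averages per group from the array maker's software, with no version given in the sources used here. These hold mean Ct and delta Ct on the log2 scale, ratios of 2 to the power of minus delta Ct, and fold changes and p-values of the authors' own comparisons, which were not used. The deposited mean Ct lay within 0.1 cycle of the mean of the raw Ct in 267 of 267 gene and group means, and shows missing wells of Ctsg entered as 38.

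Group means of minus delta Ct were estimated in R 4.3.3 by limma 3.58.1 over all 9 arrays with no block, and p-values were adjusted over the 84 panel genes (82 for DSS+DPG against UN). Gaps and housekeeping wells were compared by exact permutation tests with scipy 1.17.1, and figures were drawn with matplotlib 3.10.9. The fit was tested on simulated data. Depth has no meaning for Ct, and precision is limited by the number of arrays. The replicate numbers of the labels were checked for pairing. The correlation of deviations over 73 genes was 0.38, 0.34 and 0.23 for DSS with UN, where all 3 exceed 0.1, from 0.078 to -0.12 for DSS+DPG with DSS, and from 0.17 to -0.076 for DSS+DPG with UN.

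The members, gene lists and alternatives were chosen with earlier results of these data known. Genes named are the members, housekeeping genes, list members, those at the ends of a list or next to a member in rank, the 3 most similar genes, and those with incomplete detection, named after their values were seen. The fibroblast and collagen lists share 5 genes, and Cxcl1, Cxcl3, Cxcl5, Csf3, Col3a1, Il1b, Mmp9, Plaur, Plat and Timp1 were among the genes the study picked on these arrays for a rise with DSS and a fall with DPG. The 14 other references were a geometric in place of the arithmetic mean over the 5 housekeeping genes, the 5 means that leave 1 of them out, the 5 single genes, the geometric mean over Hsp90ab1, Itga3 and Mif, the panel median, and raw Ct. Limits of 35 and 40 cycles, a filter on late wells, the array maker's t-test, a fit of only the groups compared, a replicate block, leave-one-out fits and a 2-fold threshold were also tried. The results of some single genes are not reported here, although they are part of every count.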

Additional observations from a re-analysis of the deposited data

How the results depend on the processing

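Over 26 alternatives, Ctsk and Ctsl in DSS+DPG against UN kept their direction and call in all 26 (-2.01 to -0.24 for Ctsk, -3.32 to -1.55 for Ctsl). In DSS+DPG against DSS each kept them in 25, and under the panel-median reference turned to 0.39 for Ctsk (adjusted p = 0.000408 from limma) and 0.092 for Ctsl. In DSS against UN, Ctsk kept them in 24 and turned under the panel-median reference (-0.63) and with B2m alone (-0.52). Ctsl in DSS against UN kept them in 21. It turned with B2m left out of the reference (0.14), under Gapdh alone (0.28), with the reference of Hsp90ab1, Itga3 and Mif (0.21) and with Hsp90ab1 alone (0.66), and did not pass with Gusb alone (-0.03). The causes were not tested. Leaving out any array changed no call of Ctsk or Ctsl and no sign of their gap. The replicate block changed no call either, with adjusted p = 4.54e-05 from limma for Ctsk and 0.00457 for Ctsl in DSS against UN, 3.64e-06 and 3.29e-07 in DSS+DPG against DSS, and 0.000219 and 4.48e-07 in DSS+DPG against UN, and 77, 75 and 76 panel genes called. With a threshold of 2-fold in place of 3.5-fold, 43 panel genes passed in DSS against UN, 52 in DSS+DPG against DSS and 44 in DSS+DPG against UN.

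The fitted values of Ctsg, with at most 1 Ct to 38 in a group, followed the reference and carry no size. In DSS against UN it passed without B2m (1.07), with Gapdh alone (1.21), with Hsp90ab1, Itga3 and Mif (1.14) and with Hsp90ab1 alone (1.59, adjusted p = 0.00389 from limma). It turned, without passing, with the panel-median reference (-0.71) and with B2m alone (-0.59). Without single arrays it ran from 0.73 to 1.00, and it also passed without DSS replicate 1 (0.95, adjusted p = 0.0488 from limma) and without DSS replicate 3 (1.00, adjusted p = 0.0323 from limma). In DSS+DPG against DSS it passed without Hsp90ab1 (0.91), with the panel-median reference (2.48, adjusted p = 0.00015 from limma), with Actb alone (1.12) and with B2m alone (1.20). It turned, without passing, with Hsp90ab1, Itga3 and Mif (-0.12), with raw Ct (-0.51) and with Hsp90ab1 alone (-0.11), and ran from 0.44 to 0.71 without single arrays. In DSS+DPG against UN, where both groups lay at 38, the fitted value of 1.44 is the difference of the reference alone and was not tested, and a limit of 40 cycles gave 0.82 (adjusted p = 0.447 from limma). With a limit of 35, with the filter on late wells, or without DSS replicate 2, Ctsg had no Ct to test.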
